A study of Mus musculus with 5 samples.

Results

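Expression of 10 genes that write, copy, read or remove cytosine methylation was followed in single mouse embryos with and without Oct4. The genes were chosen by name, as the rows of the count table called Dnmt1, Uhrf1, Dnmt3a, Dnmt3b, Dnmt3l, Tet1, Tet2, Tet3, Tdg and Mbd3. All 10 were found among 49671 genes in the table, of which 21777 had at least 1 count. In SO- embryos, Dnmt3b and Dnmt3a fell to about 50.1% and 59.5% of their SO+ levels. Neither difference passed the test without SO- embryo 1 or without SO- embryo 2. Dnmt3a lay just inside the threshold of the test and Tet1, at 59.1%, just outside it. Dnmt1 and Uhrf1 overlapped between genotypes.

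Methyl groups on the cytosine of CpG dinucleotides are placed de novo by Dnmt3a and Dnmt3b, and Dnmt3l, which has no catalytic activity of its own, stimulates both. After replication, Uhrf1 recognises hemimethylated CpG and recruits Dnmt1, which copies the mark onto the new strand. Tet1, Tet2 and Tet3 oxidise 5-methylcytosine, Tdg excises its most oxidised forms so that repair can restore unmodified cytosine, and Mbd3 is a subunit of the NuRD chromatin remodelling complex. Around implantation the mouse epiblast passes from a hypomethylated to a highly methylated genome, and Dnmt3b is the de novo enzyme known for its high expression there.

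Embryos had been collected at E6.75, 2 of them SO+ and 3 SO-, all of mixed strain background, and RNA-seq was done on the manually dissected epiblast and visceral endoderm (VE) of each. SO+ embryos were Sox2Cre-/-; Oct4 fl/+ and SO- embryos were Sox2Cre+/-; Oct4 fl/-, so that every embryo carried a floxed allele, the SO+ embryos kept an intact one beside it, and the SO- embryos had a null allele and the Cre transgene. The Sox2 promoter drives Cre mainly in the epiblast, so the VE of an SO- sample is not the target of the deletion, and residual Oct4 can persist in some epiblast cells at this stage. The paper uses the name SO+ also for embryos functionally heterozygous for Oct4, some of which carry Cre. By the genotypes given here, Cre itself was present in SO- embryos alone and cannot be told apart from loss of Oct4.

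Total counts were 27538119 and 27047148 in SO+ embryos and between 1117566 and 4191498 in SO- embryos, on average 8.67 times more in SO+. A level is given as CPM, the count per 1e6 counts of its library, and 3 counts correspond to 0.109 and 0.111 CPM in SO+ embryos and to 0.726, 2.68 and 0.716 CPM in SO- embryos 1, 2 and 3, which covers counting error only. The second sequencing index also differed between genotypes, so depth and index cannot be told apart from genotype. Pou5f1, which encodes Oct4, had 920 and 435 CPM in SO+ samples, against 27.8, 12.5 and 43.7 CPM in SO- (log2 fold change −4.43, standard error 0.33, adjusted p = 3.94e-05 by edgeR).

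The 3 Dnmt3 genes are related in sequence, which matters for counting because short reads are assigned by sequence alone. Dnmt3a and Dnmt3b had 56.4% identical residues over 750 aligned positions, and Dnmt3a and Dnmt3l 42.3% over 312. Over whole transcripts, the longest run of identical bases was 18 between Dnmt3a and Dnmt3b and 15 between Dnmt3a and Dnmt3l. It was 12 between Dnmt3b and Dnmt3l, and all 3 runs are far shorter than a read. A stretch of 90 coding bases that aligned in all 3 without a gap is shown for that reason, read from the GENCODE transcripts of the longest coding isoforms, with bases that differ from Dnmt3a in capitals. It spans coding bases 1567 to 1656 of Dnmt3a, 1417 to 1506 of Dnmt3b and 358 to 447 of Dnmt3l, and 22 and 28 of its bases differ from Dnmt3a in Dnmt3b and Dnmt3l.
Dnmt3a: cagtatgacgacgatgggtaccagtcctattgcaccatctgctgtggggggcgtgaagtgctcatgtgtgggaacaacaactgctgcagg
Dnmt3b: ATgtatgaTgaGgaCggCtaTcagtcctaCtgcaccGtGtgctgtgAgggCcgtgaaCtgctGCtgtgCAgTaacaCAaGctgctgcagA
Dnmt3l: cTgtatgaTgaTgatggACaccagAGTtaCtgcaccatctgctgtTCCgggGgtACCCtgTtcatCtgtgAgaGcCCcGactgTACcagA

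Promoter sequences are shown for the 3 genes whose levels were lower in SO- embryos at an unadjusted p under 0.05, since CpG is the substrate of the enzymes they encode. They are the 250 bases before a RefSeq start on GRCm38.p6, 5′ to 3′ along the gene, with each CpG in capitals. The Dnmt3b window lies at chr2:153649199-153649448 on the plus strand and holds 21 CpG. The Tet1 window lies at chr10:62887325-62887574 on the minus strand and holds 15. For Dnmt3a, which has 3 such starts, the window of the most downstream, at chr12:3891494-3891743 on the plus strand, is given, with 15 CpG. The windows of its other starts, which overlap each other, hold 38 and 40 CpG.
Dnmt3b: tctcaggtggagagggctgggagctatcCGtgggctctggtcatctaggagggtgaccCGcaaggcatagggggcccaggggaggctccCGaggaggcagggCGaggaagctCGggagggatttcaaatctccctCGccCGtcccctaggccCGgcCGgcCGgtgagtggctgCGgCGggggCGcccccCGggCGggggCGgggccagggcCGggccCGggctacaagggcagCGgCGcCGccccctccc
Tet1: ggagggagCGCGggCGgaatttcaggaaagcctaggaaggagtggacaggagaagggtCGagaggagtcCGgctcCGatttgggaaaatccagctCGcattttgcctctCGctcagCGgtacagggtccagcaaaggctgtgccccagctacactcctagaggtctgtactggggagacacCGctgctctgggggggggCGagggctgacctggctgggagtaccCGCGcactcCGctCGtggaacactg
Dnmt3a: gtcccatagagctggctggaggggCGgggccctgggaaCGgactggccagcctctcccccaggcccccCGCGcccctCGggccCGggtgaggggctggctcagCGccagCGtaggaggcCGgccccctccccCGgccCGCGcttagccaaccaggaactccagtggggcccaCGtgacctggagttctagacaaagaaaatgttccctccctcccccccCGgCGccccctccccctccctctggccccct

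RefSeq gave 17 windows of 300 bases, from 250 before to 50 after a start, for all 10 genes. They held between 2 and 57 CpG with a median of 22, against a median of 7 over 32851 windows of all genes. The octamer ATGCAAAT, the sequence that Oct4 is known to bind through its POU domains, was searched on both strands and was in 0 of the 17 windows, and the shorter ATGCAAA, which the octamer contains, was also in 0. Over all windows, 1.74% held the octamer and 4.63% the shorter form. At such low shares, 0 in 17 windows is not unusual, and sequence outside the windows was not searched. Binding of Oct4 at or near these genes was not tested.

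To compare levels between genes, CPM was divided by the length of a gene's merged exons in kb. Dnmt3b was the highest of the 10 genes in all 5 embryos, at 780 and 639 CPM per kb in SO+ samples, against 334, 283 and 448 in SO- embryos 1, 2 and 3. Its SO+ mean of 709.6 was 6.94-fold that of Uhrf1, the next gene, and the values of these genes did not overlap. Uhrf1 (102.3 ± 2.23, SD, n = 2, in SO+) and Mbd3 (84.6 ± 0.03) followed, each separate from its neighbours in all embryos. Dnmt1 (32.2 ± 0.46) and Dnmt3a (25.7 ± 4.13) were next, and although Dnmt1 was the higher in 5 of 5 embryos, their ranges over embryos overlapped.

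Tdg (5.29 ± 0.37 CPM per kb), Tet1 (4.97 ± 0.60) and Dnmt3l (3.71 ± 0.42) formed a group whose order was not separated beyond the spread, Tet1 being above Dnmt3l in 3 of 5 embryos. Tet3 (0.92 ± 0.05) lay below them and Tet2 (0.07 ± 0.04) was the lowest. In SO- embryos, the order of the means was the same except that Dnmt3l and Tet1 changed places. With the length of the longest coding transcript in place of merged exons, Dnmt3l also stood above Tet1 in SO+ embryos, and Dnmt1 and Dnmt3a came to 44.3 and 44.2 CPM per kb. Dnmt3b made up 74.9% and 71.2% of the summed CPM per kb of the 10 genes in SO+ samples, against 60.5%, 53.7% and 64.7% in SO- embryos.

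**Figure D1:**
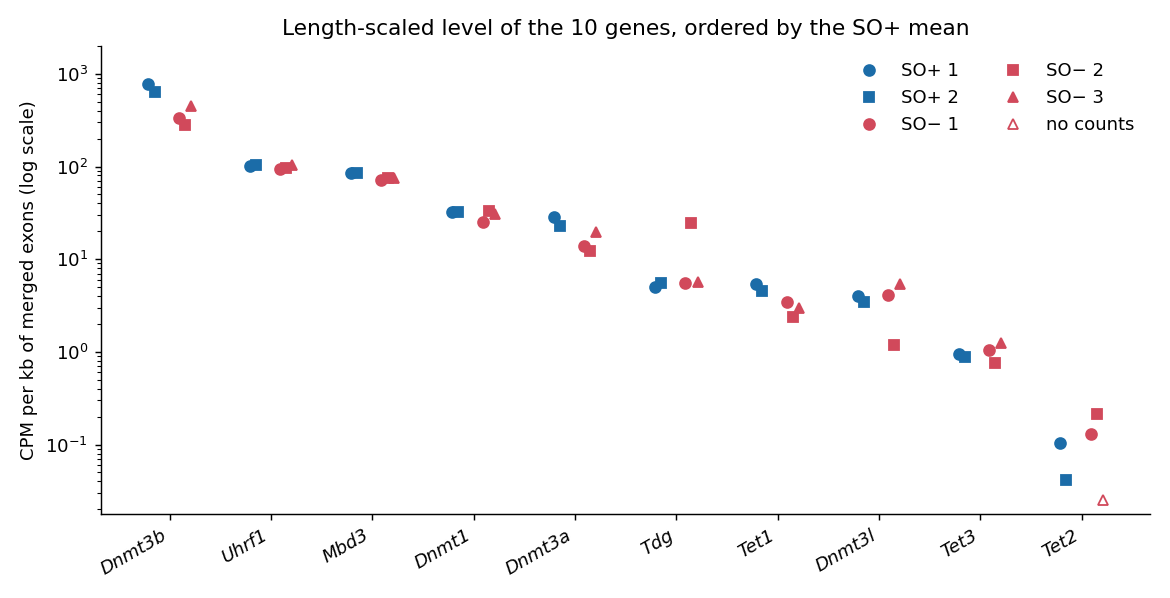
CPM per kb of merged exons (log axis) of the 10 genes in each embryo, ordered by the SO+ mean, with SO+ in blue, SO- in red and symbols for the embryo number. Dnmt3b is the highest gene in every embryo and Tet2 the lowest, and the open symbol marks SO- embryo 3, in which Tet2 had 0 counts.

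Genotypes were compared over the 12067 genes that passed edgeR's expression filter, and 9 of the 10 genes were among them. A gene was called at an adjusted p under 0.05, and fold changes are log2 values of SO- over SO+. Of the 9 genes, 2 fell and 0 rose by edgeR (0 rose also by DESeq2 and limma-voom, and 0 were higher at an unadjusted p under 0.05), against 2.35% of all tested genes called in either direction and 0.928% called lower. At an unadjusted p under 0.05, 3 of the 9 were lower, against 6.46% of all tested genes. In 4 of the 9, every SO- embryo was below both SO+ embryos, against 15.6% of all tested genes. The median log2 fold change of the 9 was −0.12, with 6 lower and 3 higher, beside −0.00 over all tested genes.

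The de novo enzyme Dnmt3b (ENSMUSG00000027478, GRCm38 chr2:153649450-153687730, plus strand, 5106 exonic bases) had 3983 and 3263 CPM in SO+ embryos 1 and 2. It had 1708, 1447 and 2286 CPM in SO- embryos 1, 2 and 3. Both SO+ values were above all SO- values, and the SO- embryos differed among themselves with embryo 2 lowest and embryo 3 highest. The means were 3623 ± 509 CPM (SD, n = 2) and 1813 ± 429 CPM (SD, n = 3), which is −0.99 on the log2 scale of the fit (standard error 0.15, 95% interval −1.32 to −0.66, adjusted p = 0.00392 by edgeR). As the samples held both epiblast and VE, fewer cells of a type and less RNA per cell cannot be told apart. The call was lost without SO- embryo 1 (adjusted p = 0.122 by edgeR, log2 fold change −0.96) and without SO- embryo 2 (adjusted p = 0.102, −0.85), and it was lost with a robust estimate of spread (0.0682). Without these embryos only 46 and 35 genes were called in all.

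Dnmt3a (ENSMUSG00000020661, chr12:3806007-3914443, plus strand, 16642 exonic bases), the other de novo enzyme, had 477 and 380 CPM in SO+ embryos. Its SO- values were 231, 204 and 329 CPM, again with embryo 2 lowest and embryo 3 highest, and the genotypes did not overlap. It fell by 0.73 on the log2 scale (standard error 0.17, 95% interval −1.09 to −0.36), with an adjusted p of 0.0424 by edgeR. This call was close to the threshold and was lost without SO+ embryo 1 (adjusted p = 0.1004 by edgeR), without SO- embryo 1 (0.364) and without SO- embryo 2 (0.323). It was also lost, with folds of about the same size, with limma-voom (log2 fold change −0.69), a robust estimate of spread (−0.73), a correction for exon length (−0.75, adjusted p = 0.0534 by edgeR) and a minimum of 1 CPM in 2 embryos (−0.73, adjusted p = 0.0558 by edgeR). A noncoding gene on the opposite strand, Dnmt3aos, overlaps 133 of its exonic bases.

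Dnmt3l (ENSMUSG00000000730, chr10:78041947-78063622, plus strand), the cofactor of both enzymes, was low, with 330 and 276 counts in SO+ samples, against 51, 4 and 67 counts in SO-. These corresponded to 11.98 and 10.2 CPM in SO+ and to 12.3, 3.58 and 16.0 CPM in SO-, so the SO- values lay on either side of the SO+ values. The log2 fold change was 0.09 with a 95% interval from −0.78 to 0.95 (adjusted p = 0.965 by edgeR), while the mean CPM was slightly lower in SO- (10.6 ± 6.38) than in SO+ (11.1 ± 1.26). A difference of this gene in either direction was not detectable with this depth, this spread and this number of embryos.

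**Figure D2:**
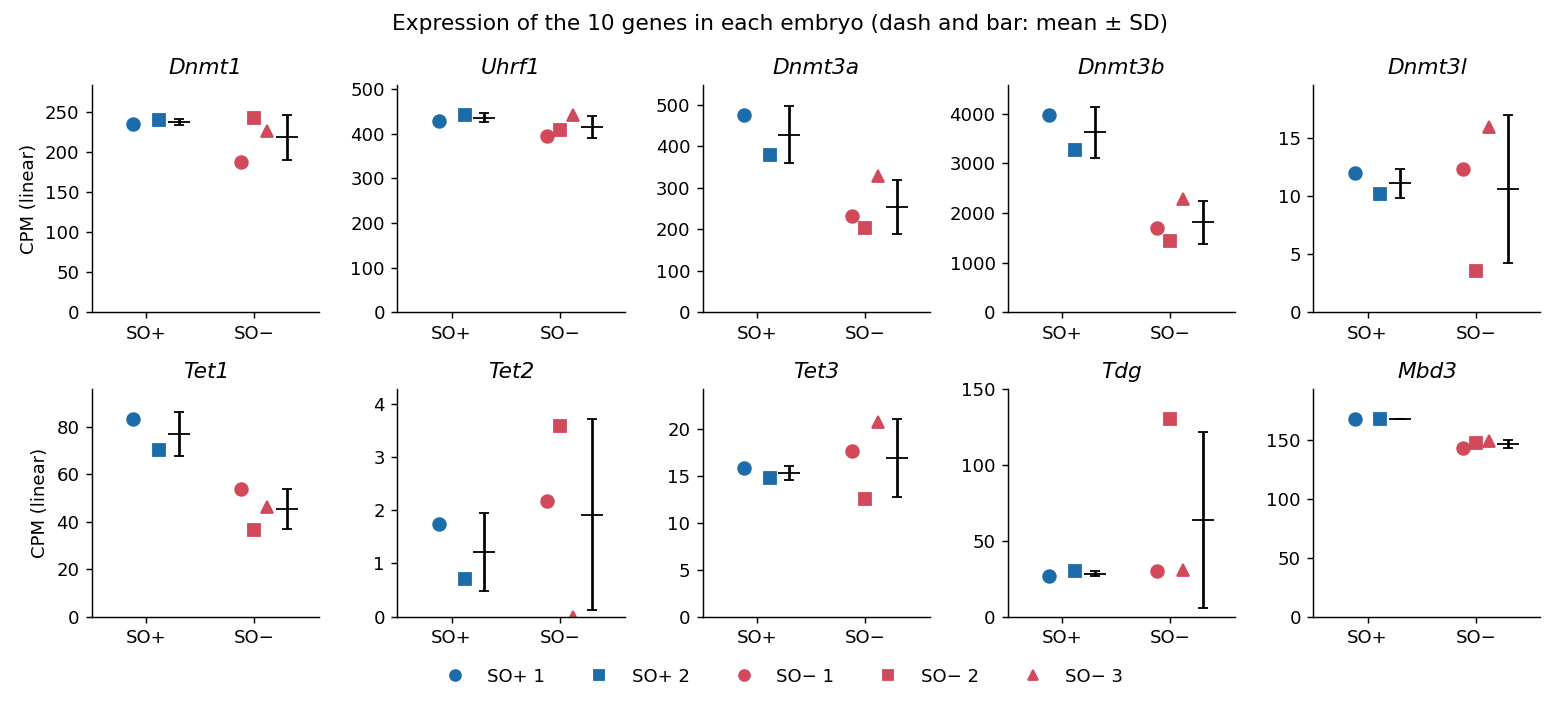
CPM (linear axes from 0) of the 10 genes in each SO+ (blue) and SO- (red) embryo, with symbols for the embryo number and the group mean ± SD as a dash and bar. The SO+ and SO- points are separate for Dnmt3a, Dnmt3b, Tet1 and Mbd3 with SO- lower, and SO- embryo 2 stands apart for Tdg at 130.6 CPM.

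The maintenance pair showed no call. Dnmt1 (ENSMUSG00000004099, chr9:20907209-20959888, minus strand) had 235 and 240 CPM in SO+ samples, against 188, 242 and 226 CPM in SO-. SO- embryo 2 was above both SO+ embryos and the other SO- embryos were below them. The log2 fold change was −0.12 (95% interval −0.38 to 0.14, adjusted p = 0.743 by edgeR). Uhrf1 (ENSMUSG00000001228, chr17:56303321-56323486, plus strand) had 429 and 442 CPM in SO+ samples, against 395, 407 and 442 CPM in SO-. Its values overlapped, and the log2 fold change was −0.06 (95% interval −0.28 to 0.15, adjusted p = 0.870 by edgeR). The lower ends of both intervals lie above the upper end of the interval of Dnmt3b, −0.66.

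Of the oxidising enzymes, Tet1 (ENSMUSG00000047146, chr10:62804570-62908996, minus strand, 15457 exonic bases) had 83.4 and 70.4 CPM in SO+ embryos. Its values in SO- embryos were 53.7, 36.7 and 46.0 CPM, all below both SO+ values. The log2 fold change was −0.71 (standard error 0.17, 95% interval −1.08 to −0.34), with an adjusted p of 0.0512 by edgeR, just above the threshold, so that it was not called. DESeq2 gave an adjusted p of 0.0250, and 8 other alternatives also called it, whereas limma-voom gave 0.190. Without SO- embryo 1, 2 or 3 the adjusted p was 0.159, 0.259 and 0.134 by edgeR, so the gene was not called in any of these fits. The log2 fold change was −0.59 without SO+ embryo 1 and −0.83 without SO+ embryo 2.

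Tet3 (ENSMUSG00000034832, chr6:83362373-83459084, minus strand) had 15.9 and 14.8 CPM in SO+ samples, against 17.7, 12.5 and 20.8 CPM in SO-. The SO- values lay on both sides of the SO+ values (log2 fold change 0.21, 95% interval −0.38 to 0.79, adjusted p = 0.830 by edgeR). Tet2 (ENSMUSG00000040943, chr3:133463679-133545139, minus strand) was barely detected, with 48 and 19 counts in SO+ samples, against 9, 4 and 0 in SO-, and it did not pass the filter. Its levels were 1.74 and 0.70 CPM in SO+ and 2.18 and 3.58 CPM in SO- embryos 1 and 2, while the 0 counts in SO- embryo 3 allow up to 0.716 CPM. No direction can be given for Tet2 at these counts.

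The glycosylase Tdg (ENSMUSG00000034674, chr10:82629828-82650799, plus strand) had 27.1 and 29.8 CPM in SO+ samples, against 29.99, 130.6 and 30.5 CPM in SO-. SO- embryo 2 stood apart from the other 4 embryos, which lay within 3.48 CPM of each other. The log2 fold change was 0.99 (95% interval −0.03 to 2.01, adjusted p = 0.383 by edgeR), and it was 0.10 without SO- embryo 2. This value is also uncertain because 46.0% of the runs of 100 bases in its exons occur in 5 other annotated genes, among them the processed pseudogenes Tdg-ps, Gm9855 and Gm5597. Gm9855 alone had 32.3 and 33.5 CPM in SO+ samples, against 36.3, 23.3 and 37.9 CPM in SO-, a level as high as that of Tdg in the other 4 embryos, and it was lowest in SO- embryo 2.

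Mbd3 (ENSMUSG00000035478, chr10:80392539-80399550, minus strand) had 168 CPM in each SO+ embryo, against 143, 148 and 149 CPM in SO-. Every SO- value was below the SO+ values, but by little. The log2 fold change was −0.19 (standard error 0.11, 95% interval −0.43 to 0.05, adjusted p = 0.498 by edgeR).

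**Figure D3:**
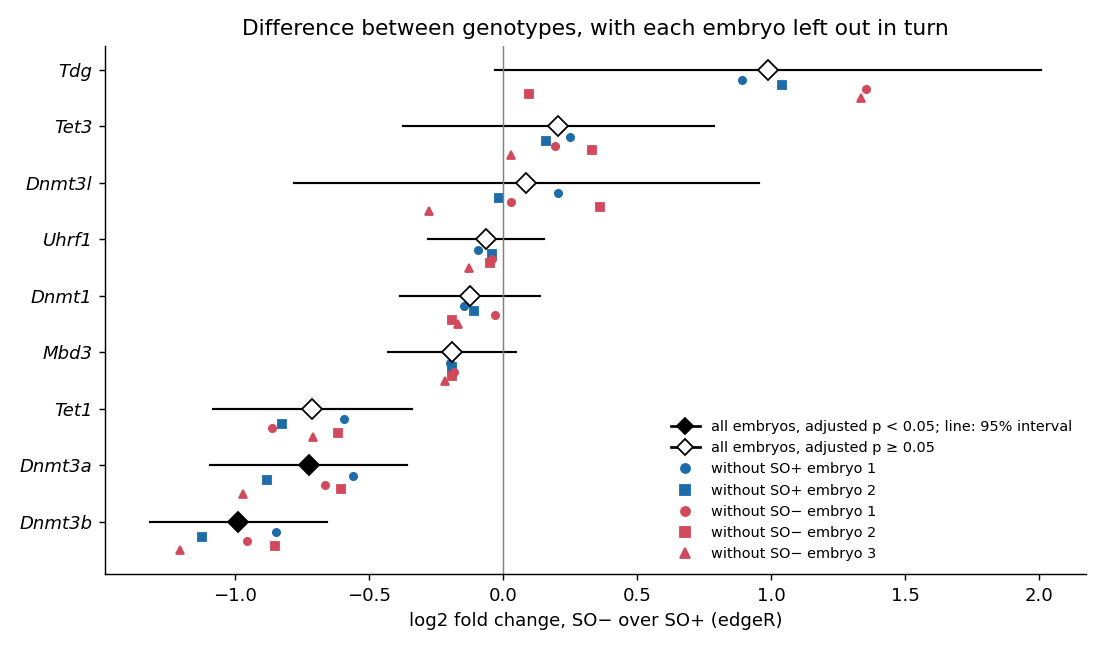
Log2 fold change of SO- over SO+ from edgeR for the 9 tested genes (diamonds, filled where the adjusted p is under 0.05) with the 95% interval (line) and the value when each embryo is left out (small symbols, colour and shape for the embryo omitted). Dnmt3b, Dnmt3a and Tet1 stay below 0 whichever embryo is left out, and Tdg moves from 0.99 to 0.10 without SO- embryo 2.

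Ratios between genes of one library were compared because they do not depend on the scaling between libraries. The 2 against 3 embryos cannot give a p under 0.1, and all 3 ratios computed reached this smallest p (exact permutation test, two-sided p = 0.1, also 0.1 after Benjamini-Hochberg adjustment). The ratio of Dnmt3b to Dnmt3a per kb was 27.2 and 28.02 in SO+ samples, against 24.0, 23.1 and 22.7 in SO-. The difference of the mean log2 ratio was −0.25, so the fall of Dnmt3b was slightly larger than that of Dnmt3a in every comparison of an SO- with an SO+ embryo.

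De novo enzymes (Dnmt3a and Dnmt3b summed) stood to Dnmt1 as 25.3 and 20.3 to 1 in SO+ embryos. In SO- embryos 1, 2 and 3 the ratio was 13.7, 8.99 and 15.2. The mean log2 ratio was 4.50 ± 0.22 (SD, n = 2) and 3.62 ± 0.40 (SD, n = 3), a difference of −0.88. Tet1 stood to Tet3 as 5.66 and 5.13 to 1 in SO+ embryos and as 3.28, 3.16 and 2.40 to 1 in SO- embryos, also a difference of −0.88 in the mean log2 ratio. In none of the 3 ratios did the genotypes overlap.

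**Figure D4:**
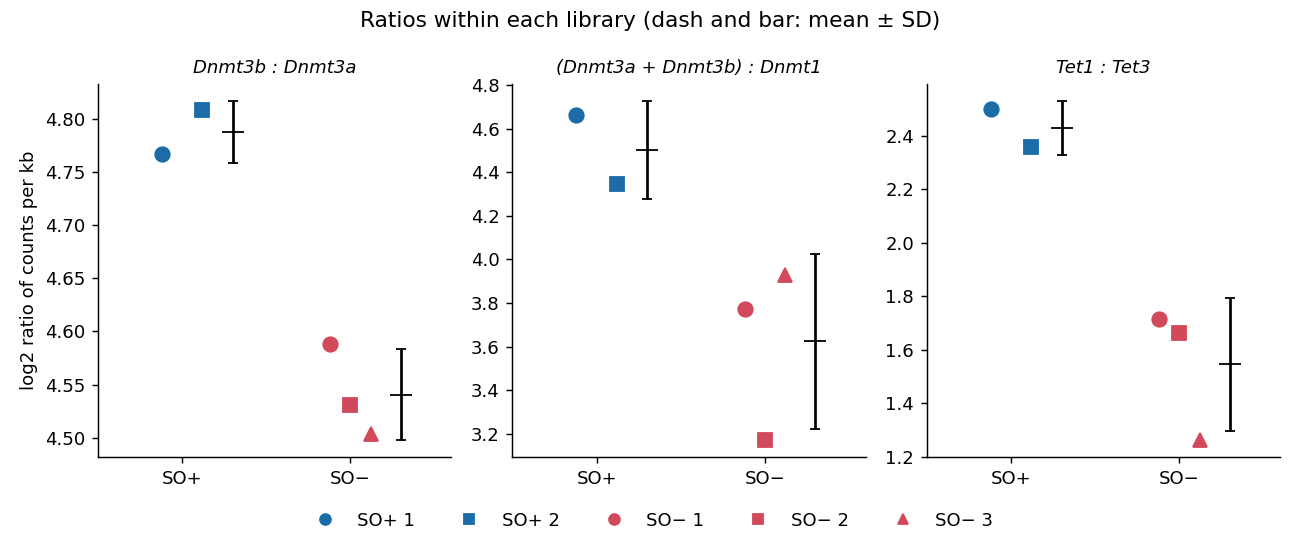
Log2 ratio of counts per kb within each library, with SO+ in blue, SO- in red and the mean ± SD as a dash and bar (axes do not start at 0). All SO- points lie below all SO+ points, by 0.25 in the mean for Dnmt3b to Dnmt3a and by 0.88 for the ratio of de novo enzymes to Dnmt1 and for Tet1 to Tet3.

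Other genes of the pathway were described from lists written by role. Of the calls named in the lists, Pou5f1 and Utf1 held with any 1 embryo left out, Slc7a3 held except without SO- embryo 1 (adjusted p = 0.0857 by edgeR), and the others were lost without SO- embryo 1 and without SO- embryo 2, always with the same direction. Among 8 partners of maintenance, 0 were called, 3 were higher and 5 lower, with a median log2 fold change of −0.15. The most abundant were Pcna, the replication clamp (432 CPM in SO+ and 390 in SO- on average, log2 fold change −0.14), and Cdca7, a partner of the remodeller Hells (419 and 306 CPM, −0.44, adjusted p = 0.171 by edgeR). A list of methyl-CpG readers and repressors linked to them had 10 tested genes and 0 calls. Its most abundant genes were not readers themselves. They were the corepressor Trim28 (2045 and 1778 CPM, −0.20) and the H3K9 methyltransferase Setdb1 (91.0 and 84.5 CPM, −0.10). At an unadjusted p under 0.05 by edgeR, 2 partners of maintenance (Cdca7 and Hells) and, in the second list, Trim28 were lower and 0 were higher. DESeq2 and limma-voom called 0 in either list.

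The 13 tested genes that target de novo methylation or protect from it had a median log2 fold change of −0.00 and 0 calls. The most abundant were the histone methyltransferases Ehmt1 (170 and 178 CPM, 0.07) and Nsd1 (127 and 119 CPM, −0.07). At an unadjusted p under 0.05 by edgeR this list had 0 genes, and DESeq2 and limma-voom also called 0. Of the 13 tested partners of the TET enzymes, 0 were called, and the most abundant were the citrate cycle enzymes Idh3a (245 and 206 CPM, −0.24) and Idh2 (173 and 160 CPM, −0.08). Prdm14, a germ cell regulator known to repress de novo methyltransferases in embryonic stem cells, was named after its values were seen. It had 0 and 20 counts in SO+ samples, against 18, 3 and 8 in SO-, or 0 and 0.74 CPM against 4.35, 2.68 and 1.91 CPM (adjusted p = 0.227 by edgeR). It was 1 of 2 partners higher at an unadjusted p under 0.05, with 2 lower, and DESeq2 and limma-voom called 0.

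Base excision repair had 10 tested genes, of which 1 fell. This was Ung, the uracil glycosylase, with 163 and 181 CPM in SO+ samples, against 112, 135 and 108 CPM in SO- (log2 fold change −0.55, standard error 0.13, adjusted p = 0.0395 by edgeR), and with 1 embryo left out its adjusted p was between 0.0310 and 0.281. Parp1, a sensor of strand breaks (484 and 440 CPM, −0.13), and the ligase Lig1 (219 and 230 CPM, 0.09) were the most abundant. The 15 genes of methyl donor supply had 0 calls and a median of −0.24, with 13 lower and 2 higher. Among them Mat2a, which makes S-adenosylmethionine, had 1177 and 944 CPM (−0.31, adjusted p = 0.147 by edgeR), and the folate enzyme Mthfd1 had 376 and 311 CPM (−0.26). At an unadjusted p under 0.05 by edgeR, 4 of the 15 were lower and 0 higher, and DESeq2 called 1 lower and limma-voom 0.

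Of 12 NuRD partners of Mbd3, 1 rose and 0 fell. The histone chaperone Rbbp7 had 528 and 585 CPM in SO+ samples, against 794, 795 and 711 CPM in SO- (log2 fold change 0.47, standard error 0.10, adjusted p = 0.0274 by edgeR), and the call was also lost without SO+ embryo 1 (0.189). Its relative Rbbp4, the most abundant of the list, had 916 and 775 CPM (−0.24). Of 16 germline genes known to be silenced by promoter methylation, 9 were tested and 0 were called, and their median was −0.17. Their summed level was 171 and 174 CPM in SO+ samples, against 173, 195 and 183 CPM in SO-. Most of it came from Rhox5 (111 and 138 CPM on average, log2 fold change 0.31, adjusted p = 0.346 by edgeR), and the germ cell helicase Ddx4 followed (17.2 and 15.9 CPM, −0.17). At an unadjusted p under 0.05 by edgeR, 1 was higher and 1 lower, and DESeq2 and limma-voom called 0.

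**Figure D5:**
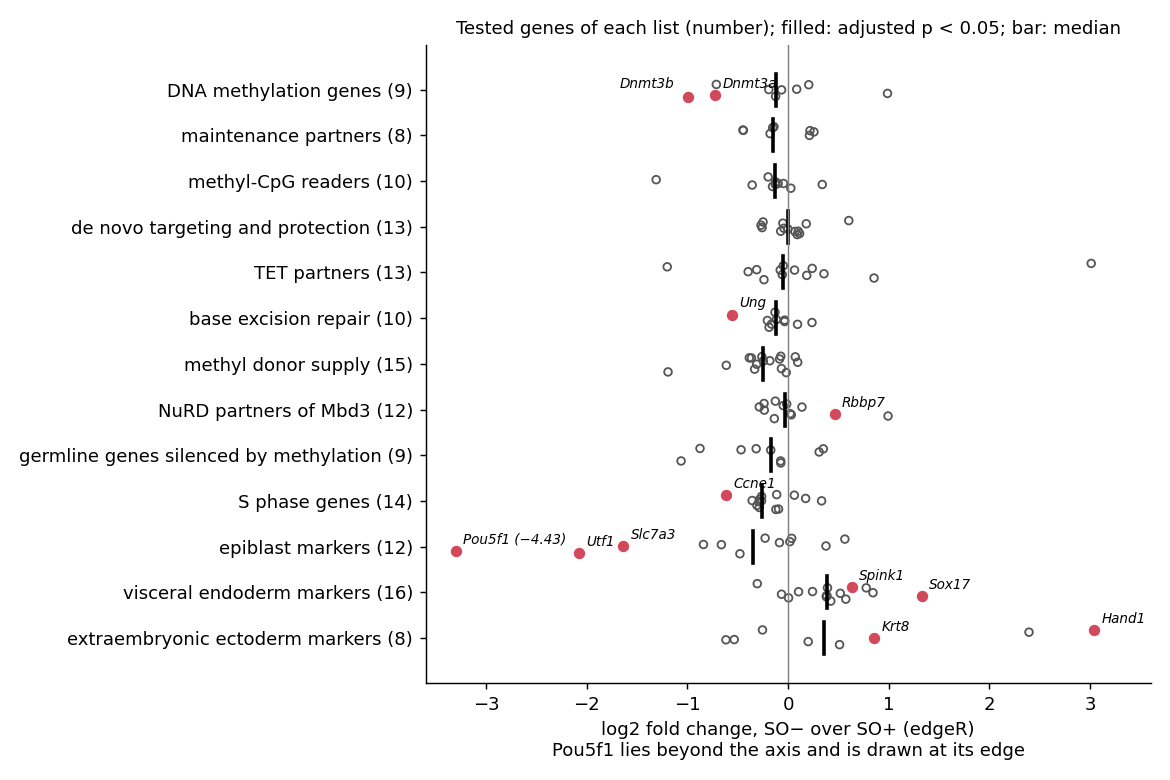
Log2 fold change of SO- over SO+ (edgeR) for the tested genes of each list, with the number tested in brackets, calls at an adjusted p under 0.05 filled and named, and the median as a bar. Most points of the methylation pathway lie within 0.5 of 0, Dnmt3b and Dnmt3a are the called genes of their list, and Pou5f1, at −4.43, is drawn at the edge of the axis.

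Some markers of the cell types in the samples moved with genotype, and their part in the values of Dnmt3b, Dnmt3a and Tet1 was not tested. Of 12 epiblast markers, 8 were lower and 4 higher. The test called 3, all lower, namely Pou5f1, the chromatin factor Utf1 (log2 fold change −2.08) and the amino acid transporter Slc7a3 (−1.64). Every SO- embryo was below both SO+ embryos in 6 of the 12, against 15.6% of all tested genes. Every SO- embryo was above them in 1, Sox2 (0.56), against 1674 of the 12067 tested genes. Fgf5 (0.38), Nanog (0.02) and the epithelial genes Epcam (426 and 434 CPM, 0.04) and Cdh1 (406 and 381 CPM, −0.09) overlapped between genotypes. Without Pou5f1, the epiblast markers summed to 2482 and 2456 CPM in SO+ samples, against 1758, 1662 and 2126 CPM in SO-. Still in this sum were Utf1 (511 and 393 CPM in SO+, against 92.9, 65.3 and 149 CPM in SO-) and Slc7a3 (358 and 276 CPM, against 110, 48.3 and 130 CPM). Dnmt3b divided by this sum was 1.605 and 1.33 in SO+ and 0.97, 0.87 and 1.08 in SO- embryos, without overlap. For Dnmt3a the quotient was 0.192 and 0.155 in SO+ and 0.132, 0.123 and 0.155 in SO- embryos, so that SO- embryo 3 came level with SO+ embryo 2. For Tet1 the genotypes overlapped (0.0336 and 0.0286 against 0.0305, 0.0221 and 0.0217). As the divisor includes the called genes Utf1 and Slc7a3, these quotients cannot tell epiblast content apart from the fall of those genes.

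Of 16 VE markers, 2 rose, the secreted inhibitor Spink1 (0.63) and Sox17 (1.33), a factor also of definitive endoderm. The median was 0.39, and the most abundant were the apolipoproteins Apoe (1690 and 1997 CPM, 0.24) and Apoa1 (633 and 848 CPM, 0.42). The VE markers summed to 5286 and 5477 CPM in SO+ and to 7533, 7756 and 5054 CPM in SO- embryos. SO- embryo 2, with the lowest Dnmt3b, had the highest VE sum, and SO- embryo 3, with the highest Dnmt3b of the SO- embryos, had a VE sum below both SO+ embryos. Of 8 tested markers of the extraembryonic ectoderm (ExE), 2 rose, Krt8 (0.85), an epithelial keratin, and Hand1 (3.04), a factor also of early mesoderm. DESeq2 called 3 higher. Gata3, named after its values were seen, averaged 0.95 CPM in SO+ and 5.74 CPM in SO- (adjusted p = 0.148 by edgeR). Without Krt8 the other 11 ExE markers summed to 19.9 and 23.6 CPM in SO+, below all SO- embryos at 35.8, 59.1 and 34.4 CPM. That sum includes Gata3 and Hand1, and Hand1 averaged 1.91 CPM in SO+ and 16.5 CPM in SO-. Of the 8 tested markers, 5 were higher and 3 lower, namely Rhox6 (log2 fold change −0.25), Ascl2 (−0.53) and Bmp8b (−0.62). The part of the ExE markers in the values of the 10 genes was not tested. The defining marker Elf5 had 3 and 5 counts in SO+ embryos (0.109 and 0.185 CPM). It had 2, 0 and 11 counts in SO- embryos 1, 2 and 3, which in embryos 1 and 3 came to 0.484 and 2.62 CPM. Its highest level was thus in SO- embryo 3, at few counts throughout.

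S phase genes were included because Dnmt1 and Uhrf1 are made mainly in cycling cells. Of 14 tested, 1 fell, the cyclin Ccne1 (log2 fold change −0.61, adjusted p = 0.0123 by edgeR), and 11 were lower and 3 higher. In 10 of the 14 no SO- embryo reached an SO+ embryo, against 15.6% of all tested genes. In 2 of the 14 every SO- embryo was above both SO+ embryos, against 1674 of the 12067 tested genes. These were Top2a (539 and 607 CPM, 0.17) and Mki67 (137 and 172 CPM, 0.33). Their sum was 6079 and 6073 CPM in SO+ samples, against 5204, 5278 and 5474 CPM in SO-. The most abundant were the replicative helicase subunits Mcm7 (857 and 785 CPM, −0.12) and Mcm2 (794 and 618 CPM, −0.36). The part of these genes in the values of the 10 genes was not tested. Of 12 maternal and blood markers, 1 was tested, the progesterone receptor Pgr (1.47 and 4.08 CPM, adjusted p = 0.267 by edgeR), and their sum did not exceed 7.01 CPM.

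The 3 genes with the pattern most like that of Dnmt3b over the 5 embryos, by the root mean square difference of centred log2 CPM among 9296 candidates, were Tfe3, Nek1 and Rragd. The distances were 0.076, 0.080 and 0.091 on the log2 scale. As these genes were picked for that pattern in the same embryos, a fall of similar size was built into the choice. Their values below are a description only. Tfe3, a transcription factor of lysosomal genes, averaged 105 CPM in SO+ and 58.0 CPM in SO- embryos and fell (log2 fold change −0.80, adjusted p = 0.0407 by edgeR). Rragd, a GTPase of amino acid signalling, averaged 151 and 84.9 CPM and also fell (−0.79, adjusted p = 0.0346 by edgeR). Nek1, a protein kinase, averaged 30.9 and 16.6 CPM (−0.84, adjusted p = 0.0827 by edgeR). The calls of Tfe3 and Rragd were lost without SO+ embryo 1 (adjusted p = 0.135 and 0.0802 by edgeR) and without SO- embryo 1 or 2.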

How the data were processed

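RNA-seq libraries of 2 SO+ and 3 SO- embryos were made with SmartSeq2, which adds no molecular identifiers. The authors trimmed reads with cutadapt, aligned them with STAR to GRCm38/mm10, counted them with HTSeq-count on Ensembl 87 genes and deposited raw counts. Strandedness of counting and duplicate removal are not given in the sources used here, so reads of overlapping or near-identical genes may be divided in unknown ways.

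Counts were tested in R 4.3.3 with edgeR 4.0.16 (filterByExpr, TMM, quasi-likelihood test, genotype as the only term) over all 12067 tested genes, with Benjamini-Hochberg adjustment and a threshold of 0.05. Standard errors were derived from the fold change and F, and intervals are 95% intervals. CPM uses library totals. Annotation and exon lengths came from GENCODE M21, coding bases from its transcripts and promoters from RefSeq. Alternatives used DESeq2 1.42.0, limma 3.58.1 (voom), other scaling and filters, thinning of SO+ libraries (10 draws) and each embryo left out. Labels name separate embryos, and libraries of one genotype differed by more than counting noise.

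The 10 genes and all lists were chosen with earlier results of these data known. Named genes are the 10, Pou5f1, each list's called genes and its 2 most abundant, and the 3 nearest Dnmt3b. Prdm14, Gata3, Hells, Elf5, Sox2, Fgf5, Nanog, Top2a, Mki67, Rhox6, Ascl2 and Bmp8b were added after their values were seen.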

Additional observations from a re-analysis of the deposited data

How the results depend on the processing

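The 10 genes held 2 calls with all embryos, among 283 genes called in all. The number of calls among the 10 was 1 with limma-voom, with a minimum of 1 CPM in 2 embryos and with a robust fit, and between 0 and 3 with 1 embryo left out. Over all genes, limma-voom called 91, and leaving out 1 embryo gave between 35 (without SO- embryo 2) and 573 (without SO+ embryo 2). With 1 SO+ embryo left, the lone sample is assumed to vary like the others. Dnmt3b kept a log2 fold change below 0 under every alternative run, as did Dnmt3a and Tet1. Dnmt3l went from 0.09 to between −0.28 and 0.36 with 1 embryo left out. Without division by exon length, 4 of the 10 genes kept their rank of level. Levels of Dnmt3l, Tet2 and Tet3 are limited by the depth of SO- embryo 2.

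Replicate numbers 1 and 2 occur in both genotypes but belong to different animals, and same-numbered embryos deviated together weakly (correlations 0.008 and 0.115). With the replicate number as a block, 929 genes and 4 of the 10 genes were called, and Dnmt3l had a log2 fold change of −0.41. This fit leaves SO- embryo 3 without a partner.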

Other observations

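Annotated relatives of the 10 genes had values that belong in no comparison above. Dnmt3c, a de novo methyltransferase of male germ cells, shares 5.59% of the runs of 100 bases in Dnmt3b and had 1 count in each SO+ embryo and 0 in each SO- embryo. The processed pseudogene Gm5648 shares 7.05% of the runs of Uhrf1 and had 2.65 and 3.62 CPM in SO+ samples, against 4.11, 4.47 and 3.10 CPM in SO-.

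The pseudogene Tdg-ps, which shares more sequence with Tdg than any other gene does, had 3.05 and 3.66 CPM in SO+ samples, against 2.18, 0.895 and 2.39 CPM in SO-. In SO- embryo 2 it rested on 1 count, beside 146 counts of Tdg.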
